A study of Mus musculus with 14 samples.

Results

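The genes described are those of the mouse collagen alpha chains that the array measured, chosen by symbol as Col, a number, the letter a and a number. They comprised 40 genes read by 41 probes, out of 16879 genes and 22575 probes on the array. Each gene had 1 probe except Col14a1, which had 2. Another 5 chain genes, Col6a3, Col6a5, Col21a1, Col27a1 and Col28a1, had no probe named for them in the annotation used and were not analysed here. Grouped by the assemblies they build, the 40 comprised 10 fibrillar, 6 basement membrane, 9 FACIT (fibril-associated), 4 beaded filament, 4 network and anchoring, 2 multiplexin and 4 transmembrane chains, and 1 other.

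The samples were 12 mammary tumours from mice heterozygous for Brg1 (Brg1+/-), the gene of the SWI/SNF chromatin remodelling ATPase that is now named Smarca4. RNA from each tumour, in Cy5, was hybridised on a two-colour microarray against a mouse reference RNA, in Cy3, that all arrays shared. T172 and T284 had 2 arrays each, the second marked biorep, and T176, T55, T135, T160, T221, T372, T646, T920, T2023 and T2134 had 1 each. Every tumour label opens with the word MIXED, which may name a mixed strain background but is not explained there. The labels give no age, named strain or driving event. They also do not state whether each tumour had its own animal or what a second array repeated. The p-values therefore apply only to these samples. In the F-tests over tumours they rest on the spread between the repeat arrays of T172 and T284. In the tests of 1 tumour they rest on the spread over the other 11. Values are log2 ratios of tumour over reference, on which a difference of 1 is a 2-fold difference. The reference RNA is not a normal mammary gland, and ratios do not rank the abundance of different genes. All tumours carried the same genotype, so differences between tumours are the comparison that was made. The arrays held values for 22501 to 22566 probes, and their number limits the precision.

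Collagens are secreted proteins whose alpha chains wind around each other into a rope-like helix. Fibrillar collagens pack into the tension-bearing fibres of stroma, bone and cartilage, FACIT collagens decorate those fibres, and type IV collagen forms the sheet on which epithelium rests. In mammary tumours fibrillar collagen comes mainly from fibroblasts of the stroma, whereas epithelium contributes to its own basement membrane.

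T176 went against its label as a mammary tumour in most of the epithelial markers. The median log2 ratio of 9 mammary epithelial markers was -4.09 in T176, against -0.03 to 2.16 in the other 11 tumours. In T176 6 of the 9 were called lower than in the other 11 by limma's test, against 1.34% of 16823 genes, among them Krt8 (-3.53), Krt18 (-4.25), Epcam (-4.09) and Cdh1 (-4.58). Of the 3 not called, Krt19 (-4.12) was also lowest in T176. The basal keratin genes Krt5 (-1.67, against -3.61 to 1.96) and Krt14 (0.78, against -2.6 to 2.9) lay within the range of the others. The median of 5 measured bone markers was 2.94 in T176, against -3.27 to -1.10 in the others, and 3 of the 5 were called higher there, against 2.48% of all genes, namely the matrix sialoprotein gene Ibsp (5.73), the osteoblast transcription factor gene Sp7 (2.51) and Phex (2.94). Medians over fibroblast markers (-1.94 in T176, against -2.86 to 0.16), cartilage markers (-1.10, against -2.04 to -0.81), adipocyte markers (-3.79, against -4.66 to -1.27) and skeletal muscle markers (-4.10, against -4.33 to -1.90) lay within the range of the other tumours. Medians of endothelial markers (-0.31 in T176, against -1.64 to -0.07) and of myoepithelial and smooth muscle markers (-2.67, against -2.94 to -1.01) also did. The fibroblast median covers a split, as T176 was highest for Pdgfra (0.88) and Fap (2.82) and lowest for Thy1 (-2.19) and Mfap5 (-3.12). The median of 5 macrophage markers was -1.12 in T176, against -0.50 to 1.51. Of the lists other than epithelium and bone, the markers called in T176 were Fap among 9 fibroblast, Acan among 8 cartilage, Pparg among 6 adipocyte and Cd68 among 5 macrophage markers, each of them higher. In bulk tissue, fewer cells of a type and less RNA per cell cannot be told apart. Counts of genes called between tumours are therefore given with and without T176. The part of these marker shifts in the collagen values was not tested.

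Collagen genes varied widely between the tumours. Of the 40 genes, 23 were called as different between tumours with limma's F-test (moderated, adjusted over all genes, threshold 0.05), against 18.4% of the 16877 genes tested. Without T176, 16 were called, against 14.9% of all genes, and all 16 were among the 23. The median SD over tumours was 0.853 for the collagen genes and 0.386 for all genes, and 17 collagen genes had an SD of at least 1. Fibrillar chains stood at the top of this spread, with 10 of 10 called and a median SD of 1.53. Without T176, 7 of the 10 were called. The SD then fell from 1.64 to 0.49 for Col24a1 and from 1.11 to 0.36 for Col11a2. For Col3a1 it was 1.16 with T176 and 1.20 without. Basement membrane chains had 2 of 6 called and a median SD of 0.653, FACIT chains 5 of 9, beaded filament chains 1 of 4, network and anchoring chains 2 of 4, multiplexins 1 of 2, and transmembrane chains 2 of 4. The other chain gene was not called. The 7 that lost their call without T176 were Col5a3, Col11a2 and Col24a1 of the fibrillar class, Col16a1 and Col22a1 of the FACIT class, Col4a5 and Col13a1.

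**Figure D1:**
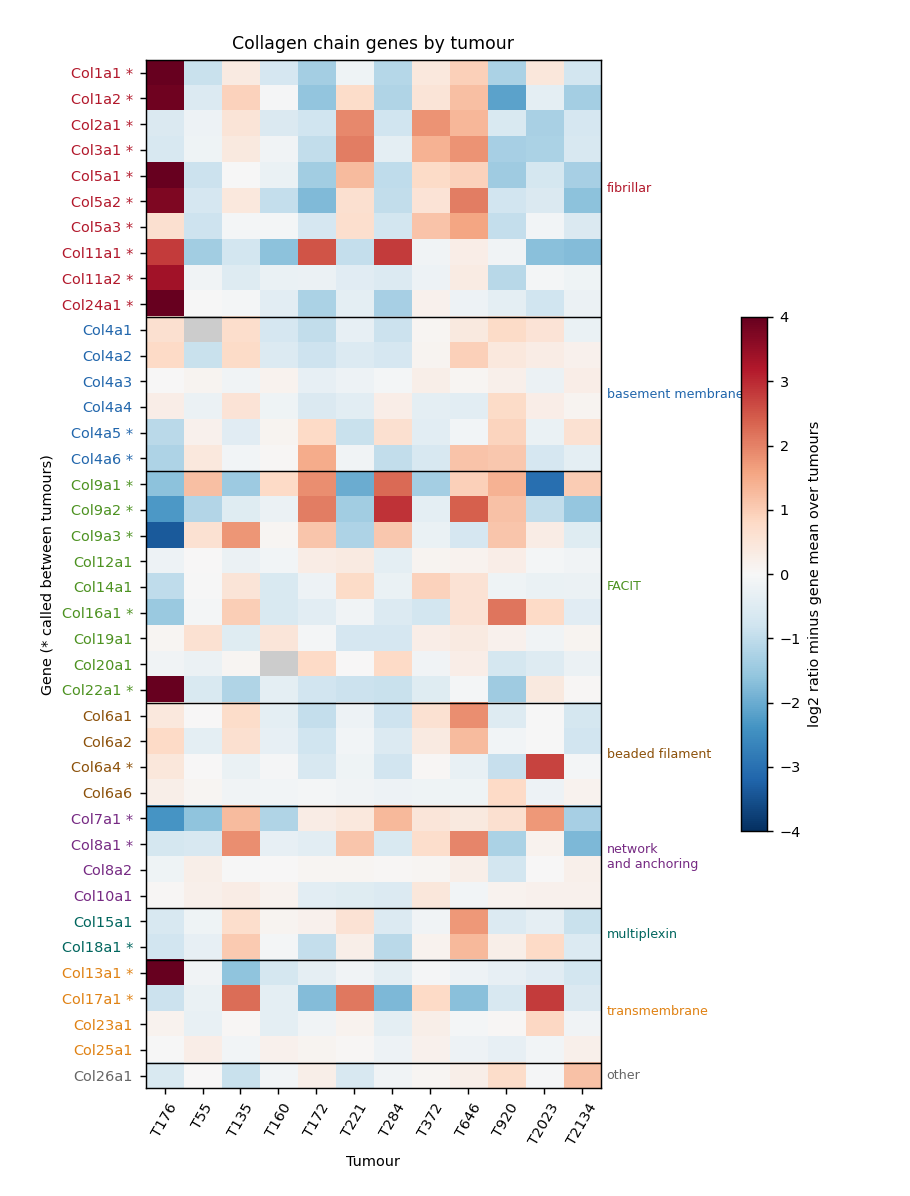
Log2 ratio of each of the 40 collagen genes (rows, coloured and separated by class) in each of the 12 tumours (columns, T176 at the left), minus the gene's mean over tumours. The colour scale ends at 4 in either direction, grey marks a missing value, and an asterisk marks the 23 genes called between tumours. The deep red cells of T176 are those of Col1a1, Col1a2, Col5a1, Col5a2, Col11a2, Col24a1, Col22a1 and Col13a1, while Col3a1 and Col2a1 are pale in T176 and reddest in T221, T372 and T646.

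The spread within a tumour came from the repeat arrays of T172 and T284 alone. The median absolute difference between the 2 arrays of a tumour was 0.477 over the collagen genes in T172 and 0.539 in T284, and the largest differences were 1.16 and 1.27. The differences leaned one way, since the second array read lower than the first for 31 of 40 collagen genes in T172 and for 32 of 40 in T284. Of all genes, 53.0% read lower on the second array in T172 and 55.01% in T284. The median change from the first to the second array was -0.35 over collagen genes in T172 and -0.43 in T284, against -0.03 and -0.06 over all genes. In 29 of the 40 genes the change had the same sign in both tumours, a count that the lean within each tumour already raises. The same count over all genes was not taken. Several chains differed at least as much within a tumour as between tumours. They lay in the basement membrane, FACIT, beaded filament, network and anchoring, and transmembrane classes. Col4a1, for one, had an SD of 0.686 within a tumour and 0.654 over tumours, whereas Col3a1 had 0.137 within and 1.16 over tumours.

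**Figure D2:**
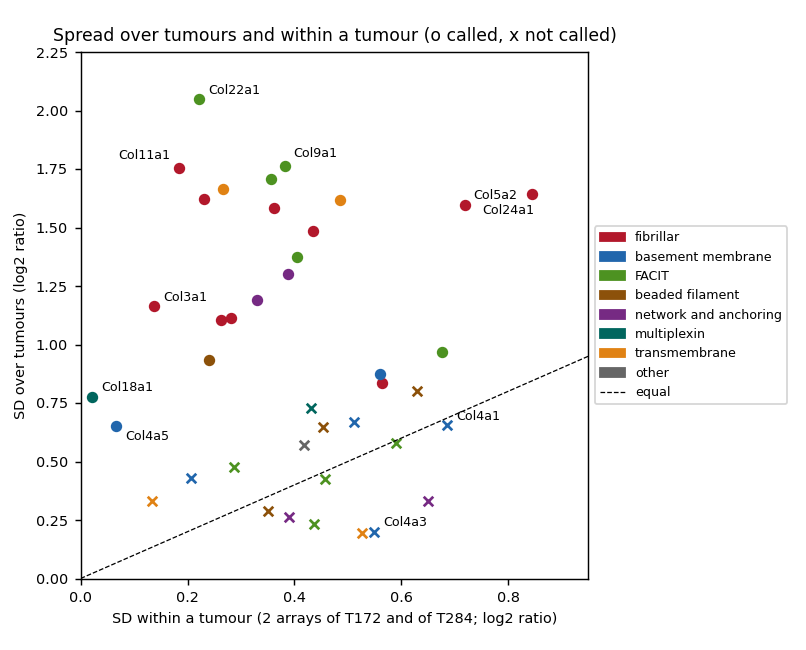
SD over tumours (vertical axis, log2 ratio) against SD within a tumour (horizontal axis, log2 ratio, from the 2 arrays of T172 and of T284) for the 40 collagen genes, coloured by class. Circles were called between tumours and crosses were not, and the dashed line marks equal SDs. Fibrillar chains lie above the line, from Col5a3 (0.833 over tumours and 0.563 within) up to an SD over tumours of 1.76 for Col11a1, while Col4a3 (0.200 over tumours and 0.550 within) lies below it.

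Type I collagen, the chief collagen of bone and stroma, is built from the products of Col1a1 and Col1a2, and type III collagen, which joins it in the fibrils of soft connective tissue, from that of Col3a1. Col1a1 stood at 1.89 in T176 and between -3.52 and -1.20 in the other 11 tumours, with a median of -2.81 (limma F-test over all 12, adjusted p = 0.00114). Col1a2 stood at 2.17 in T176 and between -3.85 and -0.51 in the others, with a median of -2.11 (adjusted p = 0.000361). T176 alone lay above the reference RNA for both chains, and T646 came next at -1.20 for Col1a1 and -0.51 for Col1a2. Col3a1 did not follow them, standing at -3.30 in T176 against -4.00 to -0.62 in the other tumours, with a median of -2.84 (adjusted p = 0.00172). Its highest values were -0.62 in T221, -0.86 in T646 and -1.26 in T372, and T176 lay among its lower ones.

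Type V collagen, which starts and limits the width of type I fibrils, had chains on both sides of that split. Col5a1 stood at 1.33 in T176 and between -4.15 and -1.48 in the other 11 (median -3.44; limma F-test adjusted p = 0.000666). Col5a2 stood at 2.26 in T176 and between -3.23 and 0.58 in the others (median -2.15; adjusted p = 0.00263). Neither gene overlapped between T176 and the rest. Col5a3, given to complete the class beyond the rule for named genes, stood at -0.99 in T176, inside its range of -2.58 to -0.03 elsewhere (adjusted p = 0.0467), and its call was lost without T176, T372 or T646, or with 1 probe per gene.

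Type XI collagen, the minor fibril partner in cartilage, differed by chain. Col11a1 was high in T176 (1.70), T284 (1.68) and T172 (1.41) and stood between -2.83 and -0.85 in the other 9 tumours (limma F-test adjusted p = 0.000132). Its values in T284 were 1.62 and 1.74 on the 2 arrays, and in T172 1.58 and 1.23, so the height of these tumours was seen on both. Col11a2 stood at 2.61 in T176 and between -1.87 and -0.44 in the other 11, including -1.29 in T284 and -0.99 in T172 (adjusted p = 0.00367). Col24a1, a minor fibrillar chain known from developing bone, stood at 3.75 in T176 and between -2.58 and -1.07 elsewhere (median -1.64; adjusted p = 0.00424). Col2a1, the main fibrillar chain of cartilage and also given beyond the rule, stayed below the reference in every tumour, at -3.91 in T176 and between -4.61 in T2023 and -1.38 in T221 in the others (adjusted p = 0.00307). Its high tumours, T221, T372 (-1.53) and T646 (-1.98), were those of Col3a1.

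Each tumour was next set against the mean of the other 11 with limma's moderated test, in which the lone tumour is assumed to vary like the rest. In T176 7 collagen genes were higher, against 2.48% of 16823 genes, and 1 was lower, against 1.34%. The FACIT chain Col22a1, known from tissue junctions such as that of muscle and tendon, was higher by 6.86 ± 0.52 (SE, adjusted p = 9.43e-06). The membrane collagen Col13a1 was higher by 5.58 ± 0.44 (adjusted p = 1.13e-05) and Col24a1 by 5.45 ± 0.48 (adjusted p = 2.63e-05). These 3 had narrow ranges elsewhere, as did Col11a2. Col5a1 was higher by 4.44 ± 0.91 (adjusted p = 0.0140), Col1a1 by 4.41 ± 0.76 (adjusted p = 0.00412), Col1a2 by 4.24 ± 1.04 (adjusted p = 0.0399) and Col11a2 by 3.67 ± 0.37 (adjusted p = 7.83e-05). The call of Col1a2 was lost when T55, T160, T2023 or T2134 was left out, with an adjusted p between 0.0104 and 0.0615 over 18 alternatives. The chain found lower was Col9a3, by -3.67 ± 0.86 (adjusted p = 0.0306).

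Fibrillar chains parted from each other in T176. The median difference between T176 and the other 11 was 3.87 over the 10 fibrillar chains, against -0.02 over all genes. Col5a2 missed the threshold with a difference of 4.06 ± 1.06 (limma adjusted p = 0.0534). It passed after quantile normalization, with first arrays only (adjusted p = 0.0476), and without T646 or the second array of T172, with 0.00814 to 0.0810 over 18 alternatives. The difference was -0.70 ± 1.12 for Col3a1 (adjusted p = 0.924) and -0.65 ± 1.06 for Col2a1 (adjusted p = 0.926). Within T176, Col1a1 exceeded Col3a1 by 5.19, whereas that difference of log2 ratios lay between -1.71 and 2.23 in the other 11 tumours. Col5a2 exceeded Col3a1 by 5.56 in T176 and by -0.21 to 1.87 elsewhere, although the genes are neighbours on chromosome 1. In the other 11 tumours the sole collagen gene that limma called was Col6a4 in T2023.

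**Figure D3:**
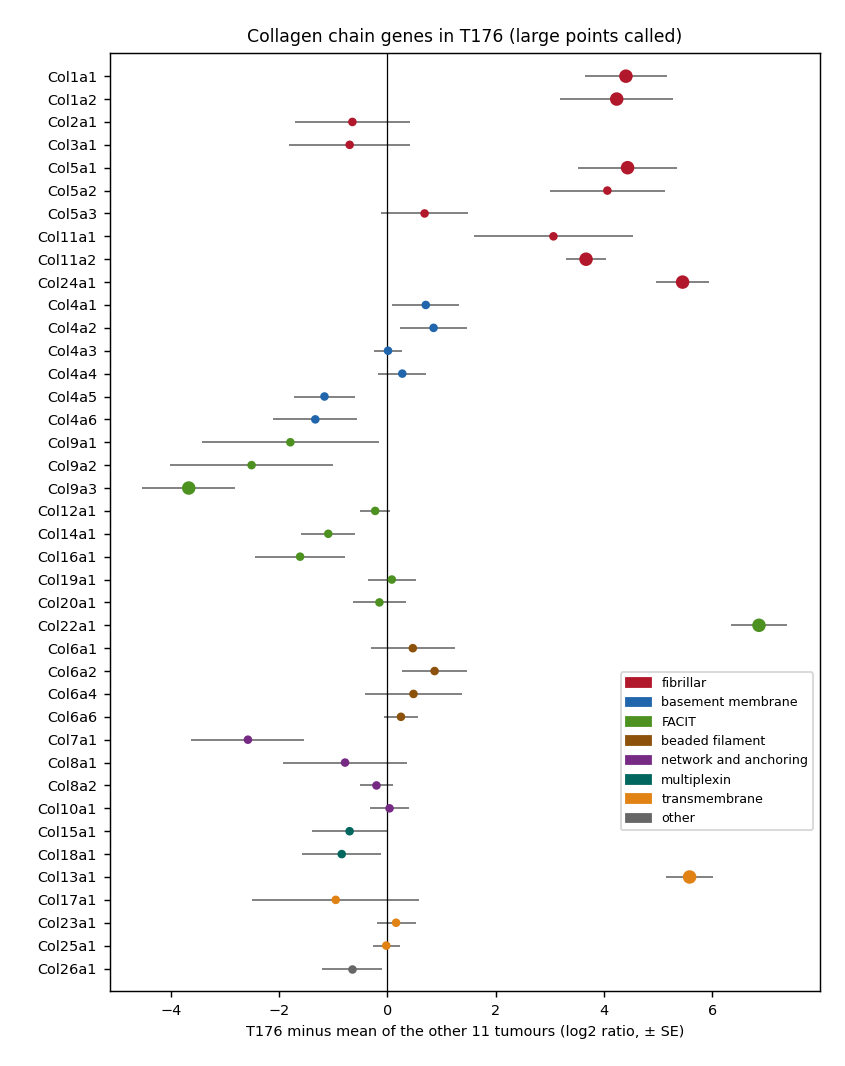
Difference of log2 ratio between T176 and the mean of the other 11 tumours (horizontal axis) for each of the 40 collagen genes (vertical axis), coloured by class, with bars of 1 SE from limma. Large points are the 8 called genes, 7 higher and 1 lower. Col22a1 lies furthest right at 6.86 and Col9a3 furthest left at -3.67, while Col3a1 and Col2a1 lie just left of 0.

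Among the 11 other tumours the fibrillar class ran from high in T646 to low in T172. With each gene's mean over tumours removed, the median over the 10 fibrillar chains was 3.54 in T176, 1.08 in T646, 0.65 in T221, 0.53 in T372 and 0.18 in T135. It was lowest in T172 (-1.13), T920 (-1.04) and T284 (-0.89). The median ratio of the 9 fibroblast markers was highest in T646 (0.16), T221 (-0.05), T372 (-0.42) and T135 (-0.86), the same 4 tumours, and stood at -1.94 in T176. In T176 these markers were split, with 2 above and 2 below all 11 other tumours. The part of fibroblasts in the fibrillar values was not tested. The basement membrane class had a narrower range, from -0.45 in T172 to 0.77 in T920, with 0.13 in T176. T646 was also the highest tumour for Col5a3, Col4a2, Col6a1, Col6a2, Col8a1, Col8a2, Col15a1 and Col18a1.

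The promoter windows of a type I and the type III chain are shown because the log2 ratios of these genes differed widely in T176. They are the 250 bases before the RefSeq start on build GRCm38.p6, on the plus strand, at chr6:4505368-4505617 for Col1a2 and chr1:45311288-45311537 for Col3a1, with matches to CCAAT in capitals.
Col1a2: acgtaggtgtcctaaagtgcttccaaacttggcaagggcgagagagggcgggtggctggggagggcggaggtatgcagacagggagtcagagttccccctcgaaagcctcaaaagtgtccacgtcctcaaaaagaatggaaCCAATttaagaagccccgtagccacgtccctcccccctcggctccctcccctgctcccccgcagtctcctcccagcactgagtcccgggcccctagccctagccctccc
Col3a1: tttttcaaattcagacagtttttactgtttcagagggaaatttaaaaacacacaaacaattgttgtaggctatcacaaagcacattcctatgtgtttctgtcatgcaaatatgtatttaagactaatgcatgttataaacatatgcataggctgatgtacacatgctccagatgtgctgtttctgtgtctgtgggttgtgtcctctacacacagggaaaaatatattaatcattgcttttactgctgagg
The motif CCAAT, searched on both strands, occurred in the Col1a2 window, 109 bases before the start, and was not in the Col3a1 window. GC content was 62% for Col1a2 and 35.2% for Col3a1. The motif was in 33.8% of all 32851 such windows and in 38.2% of the 34 windows of the 31 collagen genes that the table held. Of the 5 windows of collagen genes called higher in T176, 1 held it. A match describes letters, not a bound site.

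Basement membrane chains were the steadier class. Col4a1 and Col4a2 encode the ubiquitous type IV network. Col4a1 stood at -0.47 in T176 and -2.11 to -0.35 in the 10 others with a value (limma F-test adjusted p = 0.153), and Col4a2 at -0.18 in T176 and -1.85 to -0.03 in the other 11 (adjusted p = 0.0930). Neither was called, although Col4a2 was after quantile normalization (adjusted p = 0.0395, with 0.00102 to 0.129 over 19 alternatives). Col4a5 and Col4a6, which form further type IV networks and lie side by side on the X chromosome, were called. Col4a5 was lowest in T176 (-0.43), stood between -0.26 and 1.52 in the others (adjusted p = 0.0281) and lost its call without T176. Col4a6 was also lowest in T176 (-0.43), and its highest values were 2.28 in T172, 1.92 in T646 and 1.88 in T920 (adjusted p = 0.0210). The lowest spread of the class was that of Col4a3, a chain of the kidney filter, at -0.67 in T176 and -1.01 to -0.43 elsewhere (adjusted p = 0.981). Its partner Col4a4, named after its values were seen, was the sole collagen gene above the reference in every tumour, at 1.09 in T176 and 0.27 to 1.61 in the others (adjusted p = 0.227).

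Among FACIT collagens all chains of type IX, which coats cartilage fibrils, were called. Col9a1 was highest in T284 (2.97), T172 (2.56) and T920 (2.09), lowest in T2023 (-2.31), and had a median of 1.59 over 12 tumours (limma F-test adjusted p = 0.000315). Col9a2 was highest in T284 (3.35), T646 (2.87) and T172 (2.53) and lowest in T176 (-1.82), with a median of 0.03 (adjusted p = 0.000270). Col9a3 stood at -3.42 in T176 and between -1.30 and 1.70 in the other 11 (median 0.22; adjusted p = 0.00155). Its highest values were 1.70 in T135, 1.05 in T920, 1.05 in T172 and 1.01 in T284, so the order of tumours differed by chain. T920, among the 4 highest for Col9a1, Col9a2 and Col9a3, stood at -1.26 for Col11a1. The cartilage marker Comp, singled out after its values were seen, reached 4.33 in T172, 4.13 in T646 and 3.63 in T284, and did not exceed 0.52 in the remaining 9. The median of all 8 cartilage markers was -1.04 in T172 and -0.89 in T284, against -2.04 to -0.81 in the other 10 tumours, and Col2a1 stood at -4.12 in T172 and -4.11 in T284. The part of cartilage markers in the type IX values was not tested.

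Col22a1 had the widest spread of all collagen genes (SD 2.05), made by T176 at 4.08 against -3.65 to -1.83 in the other 11 (limma F-test adjusted p = 0.000134). Col16a1, a minor chain of several tissues, was highest in T920 (1.99) and lowest in T176 (-1.61), and its call (adjusted p = 0.0424) was lost without either tumour. Col14a1, a regulator of fibril growth, was not called (adjusted p = 0.288), but its 2 probes disagreed. The first averaged -3.08 ± 1.04 and the second -0.36 ± 0.34 (SD, n = 12), and with the probe chosen for 1 probe per gene the call was made (adjusted p = 0.0384, with 0.0118 to 0.421 over 19 alternatives). Col20a1 ranged from -0.98 in T920 to 0.52 in T172 and T284 over the 11 tumours with a value (adjusted p = 0.127). Col12a1, a FACIT chain of tendon and stroma, had the smallest spread of the class, from -0.34 to 0.40 (adjusted p = 0.886). Col19a1, the remaining member, ranged from -2.39 to -1.11 (adjusted p = 0.403).

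Type VI collagen forms beaded filaments at the surface of cells. Col6a1 stood at -1.98 in T176 and -3.38 to -0.56 in the others (limma F-test adjusted p = 0.0622), and Col6a2 at -1.56 in T176 and -3.15 to -1.10 in the others (adjusted p = 0.0913). Both were highest in T646, and neither was called. Col6a4 was low in 11 tumours, at -2.80 to -1.43, and stood at 0.83 in T2023 (adjusted p = 0.00732). Set against the other 11 it was higher in T2023 by 2.95 ± 0.40 (limma adjusted p = 0.0273), the sole collagen call outside T176, where 0.0119% of 16827 genes were called higher. Its F-test call was lost without T2023. Col6a6 was flat, from -0.38 to 0.61 (adjusted p = 0.796).

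Among network and anchoring chains, Col7a1 encodes the anchoring fibril beneath stratified epithelium. It was highest in T2023 (1.33), T284 (0.90) and T135 (0.87) and lowest in T176 (-2.75), with a median of 0.03 (limma F-test adjusted p = 0.00203). Col8a1, a short-chain network collagen of vessels and cornea, was highest in T646 (3.13), T135 (3.04) and T221 (2.29), stood at 0.46 in T176 and was lowest in T2134 at -0.61 (adjusted p = 0.00301). Its partner Col8a2 ranged from -0.78 to 0.20 (adjusted p = 0.889). Col10a1, the collagen of hypertrophic cartilage, stood at -0.85 in T176 and -1.44 to -0.42 in the others (adjusted p = 0.777).

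Multiplexins are basement membrane collagens that carry sugar chains. Col18a1, the source of the angiogenesis inhibitor endostatin, was highest in T646 (0.40) and T135 (0.12) and lowest in T284 (-1.99) and T172 (-1.88), with -1.69 in T176 (limma F-test adjusted p = 0.00877). Col15a1 was likewise highest in T646 (2.41), with 0.03 in T176 and a lowest value of -0.21 in T2134, but was not called (adjusted p = 0.0599). It was called after quantile normalization (adjusted p = 0.0266, with 0.000132 to 0.258 over 19 alternatives).

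Transmembrane collagens sit in the cell membrane. Col13a1, found at sites of cell adhesion, stood at 2.72 in T176 and between -3.99 and -2.44 in the other 11 (limma F-test adjusted p = 0.000466). Col17a1, the hemidesmosome collagen of basal epithelial cells, divided the tumours in another way. It was high in T2023 (2.83), T135 (2.27), T221 (2.12) and T372 (0.83), and at most -0.25 in the other 8, with -0.85 in T176 (adjusted p = 0.000756). The basal keratin gene Krt5, a marker in the epithelial list singled out after its values were seen, was above the reference in the same 4 tumours, at 1.96, 1.21, 0.89 and 1.19, and at most -0.65 in the other 8. Krt14, the partner keratin of Krt5 and in the same list, was above the reference in 8 tumours, those 4 among them, and stood at 0.78 in T176, where Col17a1 was at -0.85, and at 1.57 in T2134, where Col17a1 was at -0.55. The part of basal cells in the Col17a1 values was not tested. Col23a1 (-0.23 to 0.98, adjusted p = 0.492), Col25a1 (-0.48 to 0.12, adjusted p = 0.986) and the unclassed Col26a1 (-4.08 to -2.03, adjusted p = 0.181) were not called.

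Chains that share a molecule or a fibril were compared over tumours, for 16 measured pairs of the 18 listed. Col1a1 and Col1a2 correlated at r = 0.935 (permutation p = 6e-05, adjusted over 16 pairs p = 0.00032) and rho = 0.881 (p = 0.00033, adjusted p = 0.00148) over 12 tumours. Without T176 and T646, the tumours farthest from the median of Col1a1, r was 0.811. Col5a1 and Col5a2 gave r = 0.942 (permutation p = 2e-05, adjusted p = 0.00024), rho = 0.888 (p = 0.00032, adjusted p = 0.00148) and r = 0.896 without T176 and T221. Col6a1 and Col6a2, neighbours on chromosome 10, gave r = 0.934 (permutation p = 3e-05, adjusted p = 0.00024), rho = 0.881 (p = 0.00037, adjusted p = 0.00148) and r = 0.875 without T172 and T646. Partners in these molecules thus varied together over tumours.

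Col4a1 and Col4a2 lie head to head on chromosome 8, with start sites so close that their 300-base promoter windows overlap by 78 bases. They gave r = 0.907 (permutation p = 0.00036, adjusted p = 0.00144) and rho = 0.864 (p = 0.00115, adjusted p = 0.00368) over 11 tumours, and r = 0.835 without T172 and T284. Col5a1 and Col5a3 gave r = 0.713 (permutation p = 0.00701, adjusted p = 0.0224) and rho = 0.874 (p = 0.00032, adjusted p = 0.00148), and r = 0.944 without T176 and T221. These 5 pairs were the ones called, and 5 pairs were called without T176. Other partners did not pass. Col9a1 with Col9a2 gave r = 0.659 (permutation p = 0.0207, adjusted p = 0.0553) and rho = 0.608 (p = 0.0406, adjusted p = 0.108), and r = 0.646 without T2023 and T221. Col11a1 with Col11a2 gave r = 0.439 (permutation p = 0.172, adjusted p = 0.306) and rho = -0.01 (p = 0.973, adjusted p = 0.991), and r = -0.02 without T176 and T284. The median r was 0.470 over the 16 pairs and 0.047 over all 703 pairs of the 38 collagen genes with values in every tumour.

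A further 3 pairs were chosen after the values were seen, to follow Col3a1. Col1a2 with Col3a1 gave r = 0.416 over 12 tumours (permutation p = 0.182, adjusted over 3 pairs p = 0.272), rho = 0.685 (p = 0.0177, adjusted p = 0.0531) and r = 0.842 without T176. Col3a1 with Col5a2 gave r = 0.430 (permutation p = 0.158, adjusted p = 0.272), rho = 0.545 (p = 0.0705, adjusted p = 0.106) and r = 0.832 without T176, but r = 0.237 without T221 and T646, the tumours farthest from the median of Col3a1. Col1a1 with Col3a1 gave r = 0.165 (permutation p = 0.629, adjusted p = 0.629), rho = 0.413 (p = 0.184, adjusted p = 0.184) and r = 0.616 without T176, but r = 0.483 without T176 and T646, the tumours farthest from the median of Col1a1. None of the 3 pairs passed over 12 tumours. Without T176 all 3 did, by the permutation test of r adjusted over 3 pairs. The adjusted p was 0.00207 for Col1a2 with Col3a1, 0.00207 for Col3a1 with Col5a2 and 0.0478 for Col1a1 with Col3a1. As the pairs were chosen after the values were seen, these p-values describe the pattern and do not test it.

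**Figure D4:**
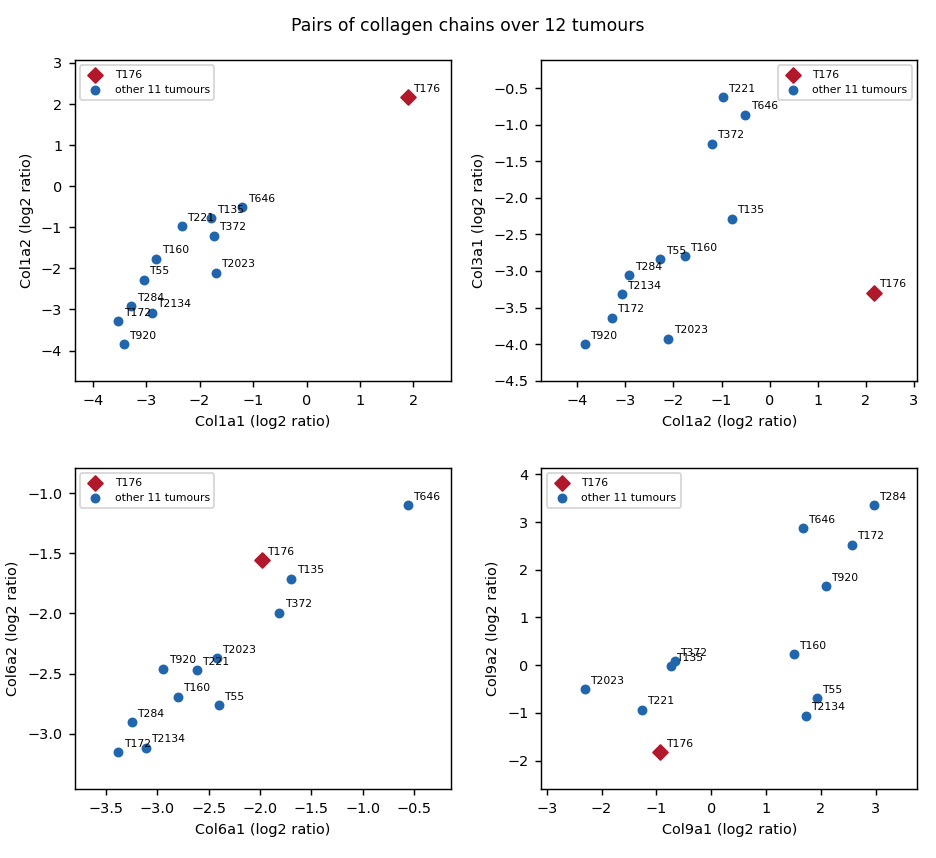
Log2 ratios of 4 pairs of collagen genes, with each point a tumour, T176 as a red diamond and the other 11 as blue circles. Col1a1 with Col1a2 and Col6a1 with Col6a2 run along a line that includes T176. For Col1a2 with Col3a1 the 11 tumours run upward and T176 (2.17 and -3.30) lies apart at the lower right, and for Col9a1 with Col9a2 the points scatter, with T176 lowest for Col9a2 at -1.82.

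Genes that make, ship, join and bind collagen were examined next to the chains. Of 42 listed, 37 were measured, and 22 were called by the F-test, against the same 18.4% of all genes, or 14 without T176, against 14.9%. Hydroxylation and folding genes had 10 of 15 called, export and processing genes 4 of 9, crosslinking genes 4 of 5, and receptors 4 of 8. Without T176 these counts were 5, 3, 4 and 2. In T176 9 of the 37 were called higher, against 2.48% of 16823 genes, 6 of them folding genes, 2 export genes and 1 a receptor, and 1 was lower, against 1.34%. The median difference between T176 and the other 11 was 1.61 over the 37 genes and -0.02 over all genes.

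Serpinh1, the collagen chaperone HSP47, stood at 1.44 in T176 and between -2.39 and 0.11 elsewhere (difference 2.78 ± 0.70, SE; limma adjusted p = 0.0433). P4ha2, a prolyl hydroxylase, stood at 1.73 in T176 and -1.83 to 0.62 in the others (2.09 ± 0.85, adjusted p = 0.281), and P3h3, a prolyl 3-hydroxylase family gene, at 0.66 in T176 and -2.92 to -0.04 in the others (2.35 ± 0.80, adjusted p = 0.168). Of these 3, chosen by SD over tumours, only Serpinh1 passed in T176, and T646 was next to T176 for Serpinh1 and P3h3. The other folding genes called higher in T176, named beyond the rule, were P3h1, Crtap, P4ha1, P4hb and P3h4 (limma adjusted p = 0.00407 to 0.0166). Pcolce, which enhances trimming of the procollagen tail, stood at 1.83 in T176 and -3.44 to -1.05 in the others (4.36 ± 0.78, adjusted p = 0.00534). Pcolce2 stood at 1.68 in T176 and -3.01 to 0.23 in the others (3.36 ± 1.05, adjusted p = 0.123). Bmp1, the protease that does this trimming, stood at 2.58 in T176, 2.32 in T646 and -1.75 to -0.21 in the other 10 tumours (3.25 ± 1.02 in T176, adjusted p = 0.124).

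The crosslinking enzyme gene Lox, whose product joins collagen chains in the fibril, stood at 0.22 in T176 and -4.95 to -1.60 in the others (3.56 ± 1.03, SE; limma adjusted p = 0.0889). Loxl1 was highest in T646 (1.51) and stood at -1.31 in T176, and Loxl3 was high in T646 (2.58) and T176 (2.48). No crosslinking gene was called in T176 by limma. The integrin subunit gene Itga10, a collagen receptor of cartilage, stood at 3.29 in T176 and -1.21 to 0.12 in the others (3.76 ± 0.44, adjusted p = 0.000305). Itga11, a collagen receptor of fibroblasts, stood at 1.93 in T176 and -2.70 to 0.70 in the others (2.83 ± 1.16, adjusted p = 0.290), and Ddr2, a receptor kinase for fibrillar collagen, at 0.83 in T176 and -2.16 to 0.07 in the others (2.01 ± 0.79, adjusted p = 0.265). The gene found lower in T176, Ddr1, the collagen receptor kinase of epithelium, stood at -1.40 there and 0.45 to 1.95 in the other 11 (-2.59 ± 0.48, adjusted p = 0.00713), and is named as the single such call.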

How the data were processed

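The authors deposited a table of log2 values per probe and array, read as tumour (Cy5) over reference (Cy3) from the dyes in the labels. All arrays ran in 1 dye orientation and correlated between 0.465 and 0.898. Base 2 was inferred from the range (-9.19 to 7.42). Array medians lay between 0 and 0.018. How the arrays were scanned, background-corrected, normalized and filtered is not given in the sources used here, and ratios carry no signal level. RNA was extracted with a Qiagen RNeasy kit, per the labels' protocols.

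Of 22575 probes, 18658 had 1 symbol in the platform annotation, 30 several and 3887 none. Symbols were updated through RefSeq (GRCm38.p6), which matched 18445 by Entrez identifier and 24 by accession. No collagen symbol changed. Probes were averaged per gene. Promoter windows were those of RefSeq.

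Genes with values on at least 12 of 14 arrays (16877) were fitted with limma 3.58.1 (R 4.3.3): a moderated F-test over tumours on all 14 arrays, and each tumour against the mean of the other 11, the repeat arrays averaged first. Benjamini-Hochberg adjustment ran over all genes, and called means an adjusted p under 0.05. The prior of the F-test carried 7.27 degrees of freedom (SD 0.313). Pairs were tested by Pearson and Spearman correlation with two-sided permutation tests of 100000 resamples, whose smallest p is 1e-05. Python 3.11.15 with numpy 2.4.6, pandas 2.3.3, scipy 1.17.1 and matplotlib 3.10.9 was used, and the fits were tested on simulated data. Alternatives were quantile normalization, 1 probe per gene, complete genes, a robust prior, annotation symbols, first arrays only, leaving out each array and, chosen after seeing the data, the array's number as a block.

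All collagen genes are accounted for by class. Values are given for at most 8 called genes per class by SD, those called in 1 tumour, and of genes not called the 2 with the largest and 1 with the smallest SD. At most 3 called genes are named per biosynthesis list, those with the largest SD, unless marked otherwise. The members, lists and tests were chosen with earlier results of these data known.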

Additional observations from a re-analysis of the deposited data

How the results depend on the processing

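The 23 collagen genes called between tumours were 22 to 27 without a replicate block under every alternative other than leaving out T176, which gave 16, so the range over leaving out 1 array was 16 to 27. The 22 biosynthesis genes became 14 without T176, with a range of 14 to 24 over leaving out 1 array, and the 9 collagen calls in 1 tumour became 1 without T176, with a range of 1 to 10. Leaving out T176 removes the tumour that held 8 of those 9 calls. The 5 called pairs were 4 to 6 in all alternatives. The median over FACIT chains in T176, relative to each gene's mean, moved to -1.48 with 1 probe per gene, by more than the within-tumour SD of 0.449. No median in T176 over the fibrillar, basement membrane or FACIT chains, and no difference in T176 of its 8 called genes or Col5a2, changed sign under the alternatives run. Over the single collagen genes, 719 of the F-test outcomes under alternatives stayed on their side of the threshold, 12 lost the call and 27 gained it. Of these gains, 9 came with the replicate block and the others were in Col4a1, Col4a2, Col6a1, Col6a2, Col14a1 and Col15a1. Without the block, Col4a1, Col4a2, Col6a1, Col6a2 and Col15a1 passed when an array of T172 or T284 was left out, which leaves the spread within a tumour to a single repeat. Col6a1 also passed without T55, and Col15a1 without T55, T160 or T372. For the 8 called genes and Col5a2 in T176, 154 outcomes stayed, 4, all of Col1a2, missed the threshold, and 4, all of Col5a2, passed it. With the array's number in its tumour as a replicate block, chosen after seeing the data, 32 collagen and 26 biosynthesis genes were called, against 43% of the 16769 genes that could be fitted. The 9 collagen genes added were Col4a1, Col4a2, Col4a4, Col6a1, Col6a2, Col14a1, Col15a1, Col20a1 and Col26a1. Only T172 and T284 have second arrays, so this block leaves 1 residual degree of freedom per gene. Their changes from the first to the second array correlated at r = 0.326 over genes, and the labels do not say that the second arrays shared a batch. Signal over background is not known here, so dim probes cannot be told from bright ones.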
